A study of Caenorhabditis elegans with 2 samples.

Results

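Nuclear hormone receptors are transcription factors that bind DNA through a zinc-finger domain and sense small lipophilic molecules through a ligand-binding domain. The Caenorhabditis elegans genome carries an unusually large set of them, most of which descend from an ancestor related to the vertebrate factor HNF4 and have no known ligand, while a small number have direct counterparts in insects and vertebrates. Their best known roles in the worm lie in moulting, fat metabolism, dauer formation and the response to diet and xenobiotics. The genes described here are the protein-coding genes whose symbol is nhr- followed by a number in the WBcel235 annotation, with 1 such gene not analysed here. They number 268 of 19985 protein-coding genes.

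Their promoters were examined for binding of FOS-1, a basic leucine zipper protein related to vertebrate Fos. Chromatin immunoprecipitation and sequencing (ChIP-seq) was carried out on an eGFP-tagged FOS-1 in 2 biological replicates, each of intact mixed-sex animals at the L1 stage, the earliest larval form. Both replicates came from strain OP304, which carries the mutation unc-119(ed3) on chromosome III and the transgene insertion wgIs304, so the protein measured was the tagged product of the transgene. There is 1 group, without control samples, and mock immunoprecipitations were not used here. Whole larvae mix all tissues, so a site bound in few cells cannot be told apart from a site bound weakly.

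Binding was read from lists of regions deposited by the authors in build ce11. The irreproducible discovery rate (IDR) list, meant to hold peaks that rank alike in both replicates, has 1895 peaks, and the pooled list, which holds peaks and background, has 20363 entries. The IDR peaks are the same intervals as the 1895 pooled entries of highest signal. Being in the IDR list thus marks a cut in pooled signal, and does not show that a given peak ranked alike in both replicates. The list of replicate 1 has 29801 entries and that of replicate 2 has 23483. Read depth is unknown, because no read counts are given, and a gene without an entry is called not listed rather than unbound. A gene was counted when the summit of an entry lay from 1000 bp upstream to 200 bp downstream of its annotated 5' end, called the promoter window. Many worm transcripts are trans-spliced, so an annotated 5' end can lie downstream of the true start of transcription.

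FOS-1 summits of the IDR list lay in the promoter windows of 15 receptor genes. They were nhr-50, nhr-47, nhr-57, nhr-58, nhr-68, nhr-142, nhr-158 and nhr-256 on chromosome V, nhr-1, nhr-32 and nhr-48 on X, nhr-19 and nhr-21 on II, nhr-105 on IV and nhr-49 on I. This is 5.60% of the receptor genes (95% Clopper-Pearson interval 3.17 to 9.06), and 7.65% of all protein-coding genes had such a summit, a value inside that interval. Another 103 receptor genes had a summit in the pooled list only, which brought the number with any listed summit to 118, or 44.0% (interval 38.0 to 50.2). The background for the pooled list was 32.8% of all protein-coding genes. The remaining 150 receptor genes had no listed summit in the window. No test was made of these shares, because genes are not replicates and neighbouring genes can share a summit, and the intervals cover counting error only.

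The sequence at the summits is shown here for 7 receptor genes. Those of nhr-50, nhr-32, nhr-1, nhr-256 and nhr-58 hold a string marked here in capitals, nhr-105 has the highest signal among the receptor peaks with none of these strings, and nhr-48 is the receptor with a direct counterpart outside nematodes. Each run covers up to 50 bp on either side of the summit, less where an exon begins, and reads 5' to 3' along the strand of the receptor gene, from the RefSeq genome of WBcel235. They lie at chrV:16000632-16000699 on the minus strand for nhr-50 and, on the plus strand, at chrX:13251572-13251672 for nhr-32, chrX:17513722-17513822 for nhr-1, chrV:1743640-1743740 for nhr-256, chrV:532163-532258 for nhr-58, chrIV:7049841-7049941 for nhr-105 and chrX:15707639-15707739 for nhr-48. Capitals mark TGACTCA (the AP-1 site of Fos and Jun factors) in nhr-50, CACGTG (the palindromic E-box) in nhr-32, GAGAGAG in nhr-1 (as overlapping copies), and TGCGTCTC or its reverse complement GAGACGCA in nhr-1, nhr-256 and nhr-58.
nhr-50: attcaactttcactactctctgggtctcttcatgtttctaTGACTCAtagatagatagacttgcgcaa
nhr-32: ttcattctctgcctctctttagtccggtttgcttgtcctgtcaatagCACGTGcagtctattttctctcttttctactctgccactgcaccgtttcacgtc
nhr-1: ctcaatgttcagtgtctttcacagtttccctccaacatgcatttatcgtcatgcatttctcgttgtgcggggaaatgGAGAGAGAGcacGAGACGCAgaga
nhr-256: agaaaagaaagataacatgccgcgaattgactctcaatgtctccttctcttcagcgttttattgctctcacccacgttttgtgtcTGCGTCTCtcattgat
nhr-58: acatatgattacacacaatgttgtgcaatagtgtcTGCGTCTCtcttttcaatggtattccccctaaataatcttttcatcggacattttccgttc
nhr-105: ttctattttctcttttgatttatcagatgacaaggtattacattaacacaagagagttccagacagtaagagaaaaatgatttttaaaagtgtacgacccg
nhr-48: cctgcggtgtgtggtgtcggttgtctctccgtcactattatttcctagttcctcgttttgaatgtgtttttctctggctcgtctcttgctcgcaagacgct

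The highest signals belonged to receptors whose functions are little known. The peak of nhr-50 (V:16000479-16000818, intergenic) had its summit 18 bp upstream of the gene and a signal of 144 in the pooled list, the authors' own value per entry, of unstated scaling. Its signal was 97.4 in replicate 1, where it ranked 146 by signal, and 44.0 in replicate 2, where it ranked 282. It was the only receptor peak of the IDR list with the AP-1 site TGACTCA or TGAGTCA within 50 bp of its summit.

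The peak of nhr-1 (X:17513602-17513941, intergenic, summit 291 bp upstream) had a pooled signal of 124. Its signals were 83.2 in replicate 1 and 40.2 in replicate 2, with ranks 220 and 356. The peak of nhr-105 (IV:7049721-7050060, intergenic, 265 bp upstream) had a pooled signal of 107, with 60.3 in replicate 1 and 46.1 in replicate 2, and ranks 426 and 249. The lists differ in scale, so replicates are compared here by rank, and these 3 peaks ranked within the first 500 entries of both replicates.

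Some receptors with peaks have known roles in metabolism and stress. The peak of nhr-49, which encodes an HNF4-related regulator of fat use and the response to fasting (I:9869180-9869519, intergenic, 301 bp upstream), had a pooled signal of 71.3. Its signal was 38.6 in replicate 1, at rank 1045, and 30.4 in replicate 2, at rank 646. That of nhr-57, a gene induced in low oxygen by the factor HIF-1 (V:4131455-4131794, intergenic, 264 bp upstream), had a pooled signal of 74.7, with 48.9 in replicate 1 and 24.1 in replicate 2, at ranks 660 and 1008. Both were listed high in each replicate.

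The peak of nhr-68, which encodes a receptor that switches on an alternative route of propionate breakdown (V:11572893-11573232, intergenic, 377 bp upstream), was less even. Its pooled signal was 48.3, with 43.1 in replicate 1 at rank 847 but 9.40 in replicate 2 at rank 7734. It also lay nearer to another gene, with its summit 73 bp from the 5' end of H12C20.7 on the other strand. The peak of nhr-48, a relative of the vitamin D receptor-like DAF-12 and NHR-8 (X:15707519-15707858, intergenic, 524 bp upstream), reached a pooled signal of 51.9, with ranks of 1456 and 2086 in replicates 1 and 2.

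The other 8 receptor peaks had pooled signals from 44.2 to 88.7. The peak of nhr-142 (V:5790929-5791268, signal 88.7, ranks 755 and 230) had its summit 546 bp upstream of the gene but 131 bp from the 5' end of F44E7.9 on the other strand. That of nhr-47 (V:5505075-5505414, signal 84.3, ranks 718 and 482) lay 8 bp upstream of the gene, in a window shared with the chaperone gene dnj-19. The peaks of nhr-158 (71.1, ranks 787 and 780) and nhr-32 (57.1, ranks 1430 and 1061) lay 412 and 342 bp upstream. For nhr-142 and nhr-68 the gene with the nearest 5' end was therefore not the receptor, and for the other 13 it was.

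The last receptor peaks by pooled signal had lower ranks in replicate 2 than in replicate 1, by unequal amounts. The 2 lists differ in length, so these ranks describe each list. The peak of nhr-256 (signal 56.0, 81 bp upstream) ranked 893 and 2820, and that of nhr-21 (47.7, in the 5' UTR) ranked 1347 and 4202. The peak of nhr-19 (45, in the 5' UTR) ranked 1758 and 2698, and that of nhr-58 (44.2, 46 bp upstream) ranked 1088 and 13483. All 15 peaks were among the 1895 entries of highest signal in replicate 1, whereas 9 were so placed by replicate 2. Of all 1895 IDR peaks, 86.8% overlapped those top entries in replicate 1 and 79.5% in replicate 2. Taken singly, replicate 1 put 18 receptor genes (6.72%) among its top entries, against 7.35% of all genes. Replicate 2 put 12 there (4.48%), against 7.37% of all genes, and 9 of those 12 are among the 15.

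**Figure D1:**
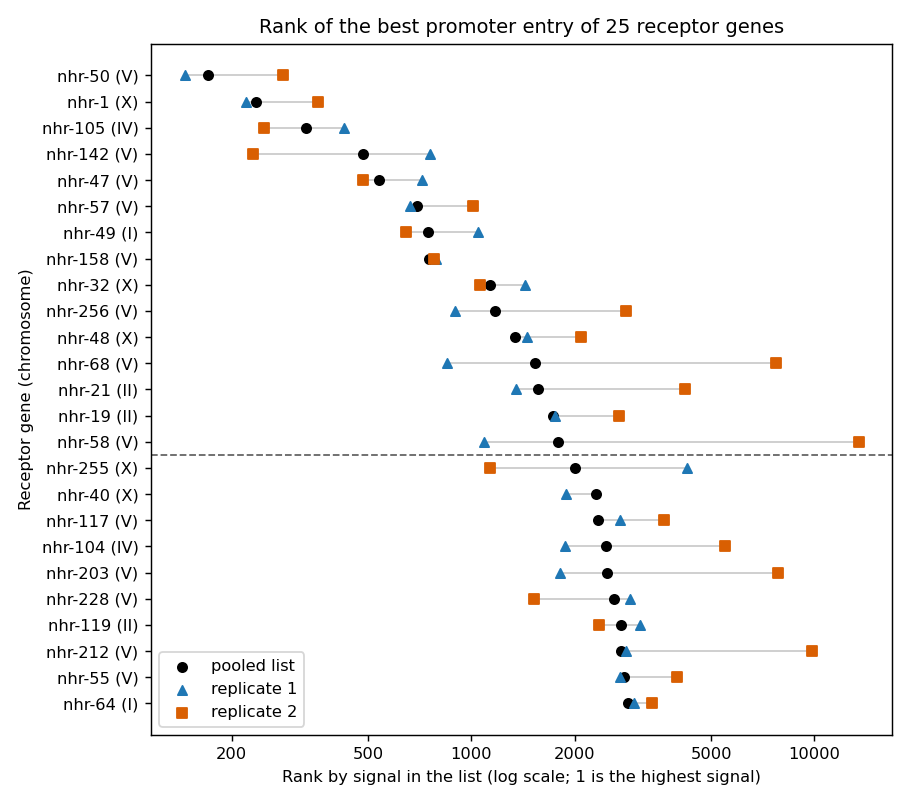
Rank by signal (log axis) of the best promoter entry of the 25 receptor genes with the highest pooled signal, in the pooled list (circles), replicate 1 (triangles) and replicate 2 (squares). A missing symbol means no overlapping entry. Genes above the dashed line have an IDR peak. The ranks of nhr-50 are 170, 146 and 282 in the 3 lists, whereas nhr-68 and nhr-58 fall to ranks 7734 and 13483 in replicate 2.

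Just below the weakest receptor peak of the IDR list, nhr-58 at a signal of 44.2, came nhr-255 on X at 41. Its entry, 566 bp upstream, stood at rank 4249 for replicate 1 and 1134 for replicate 2, the opposite of the order seen at nhr-58. The entry of nhr-40, a gene needed for muscle development and movement, reached 37.5, at rank 1882 for replicate 1 with no overlapping entry in replicate 2. The next were nhr-117 (37.1), nhr-104 (35.9), nhr-203 (35.8), nhr-228 (34.6), nhr-119 (33.6), nhr-212 (33.6), nhr-55 (33.2) and nhr-64 (32.6), all pooled signals. Of these 8, nhr-228 and nhr-119 ranked higher in replicate 2 than in replicate 1, and the other 6 ranked higher in replicate 1.

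Most receptor entries were weak beside the IDR peaks, whose lowest signal was 42.5. The 103 receptor genes with a summit in the pooled list only had best signals from 12.7 to 41 with a median of 18.5. The median signal over every entry of the pooled list was 17.1. Over all genes with a pooled summit, the median best signal was 19.9 for receptor genes and 21.8 for all protein-coding genes. In 56 of the 103 genes with a pooled-only summit the best entry overlapped one in both replicate lists. In 15 it overlapped none in replicate 1, and in 35 none in replicate 2, with 3 overlapping neither. The same split was not made for all genes with a pooled-only summit. Restricted to pooled entries that overlapped both replicate lists, which are 51.0% of the pooled list, 75 receptor genes (28.0%) had a summit, and 21.4% of all protein-coding genes did.

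The standing of receptor genes beside all genes varied with the number of entries counted, which was not tested. Among genes with any pooled summit, 12.7% of receptor genes and 23.3% of all protein-coding genes reached the IDR list. With the 5000 pooled entries of highest signal, 42 receptor genes (15.7%) had a summit against 14.9% of all genes, and with the 10181 highest 77 receptor genes (28.7%) had one against 22.4%. A best entry ranked between the IDR list and rank 10181 was found for 62 receptor genes (23.1%) and for 14.8% of all genes. Beside all genes, the receptor share was lower up to the first 4000 entries and higher from the first 5000 onward. Beside all genes weighted to the chromosomes of the receptor genes, it was level at the top, with 0.746% and 0.744% at 250 entries and 5.60% and 6.06% at the IDR list, and was already higher at 3000 entries, with 9.33% and 8.60%. The lower IDR share is also within counting error, and its difference from all genes turned from -2.05 to 0.517 percentage points when each summit was given to the nearest 5' end and to 0.305 in windows at most 20% coding.

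**Figure D2:**
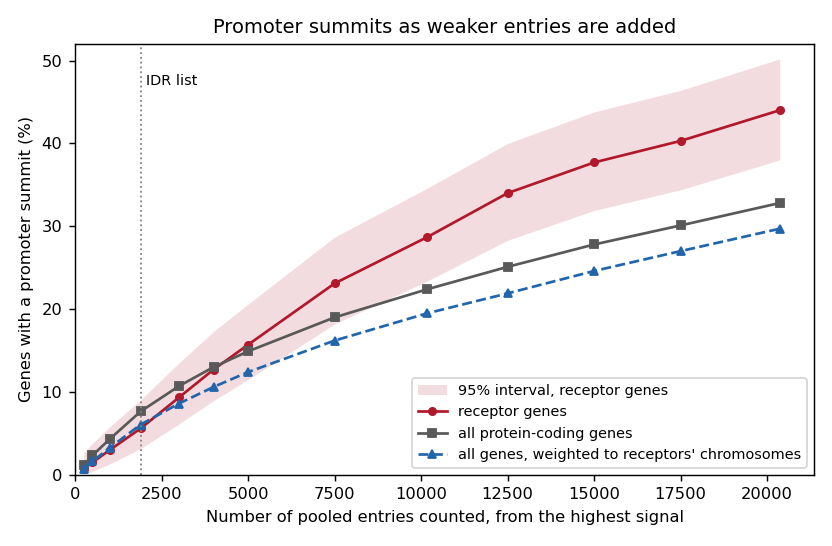
Percentage of genes with a summit in the promoter window (vertical axis) as pooled entries are counted from the highest signal downward (horizontal axis), for receptor genes with their 95% interval, for all protein-coding genes, and for all genes weighted to the chromosomes of the receptor genes. The receptor line runs from 5.60% at the IDR list to 44.0% at 20363 entries, where the line of all genes is at 32.8%. It crosses the line of all genes between 4000 and 5000 entries and last crosses the weighted line between the IDR list and 3000 entries.

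The receptor genes are unevenly spread over chromosomes, which bears on the background. Chromosome V holds 167 of them (62.3%) and 25% of all protein-coding genes, and had the lowest share of genes with an IDR summit of all chromosomes. If every chromosome's receptor genes had summits at that chromosome's share, 16.2 receptor genes (6.06%) would have an IDR summit and 79.5 (29.7%) a pooled summit, where 15 and 118 were found. Against this weighted background the IDR share of receptor genes differed by -0.46 percentage points and the pooled share by 14.4.

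On chromosome V, 8 of 167 receptor genes (4.79%, interval 2.09 to 9.22) had an IDR summit, and the background there was 4.71%. For the pooled list it was 69 of 167 (41.3%, interval 33.8 to 49.2) against 26.8%. By position along V, 36 of 78 receptor genes in the left part of the chromosome (46.2%) had a pooled summit against 24.5% of all genes there. In the middle part it was 22 of 41 (53.7%) against 33.6%, and in the right part 11 of 48 (22.9%) against 21.4%, the parts being of equal length. IDR summits were listed for 6 of the 78 in the left part (7.69%) against 4.12% of all genes there, for 1 of 41 in the middle part (2.44%) against 6.28%, and for 1 of 48 in the right part (2.08%) against 3.53%.

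On the X chromosome, 3 of 23 receptor genes (13%, interval 2.78 to 33.6) had an IDR summit against 6.08% of all genes on X. Pooled summits were listed for 17 of the 23 (73.9%, interval 51.6 to 89.8), and the background on X was 34.5%. The receptor genes on X without any were nhr-27, nhr-45, nhr-91, nhr-137, nhr-214 and nhr-281. The best pooled signals of the 17 had a median of 22.9, against 20.2 for the 69 on V and 25.4 for the 9 on II, the highest of the chromosomes.

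The other chromosomes hold few receptor genes, and their intervals are wide. On II, 2 of 15 (13.3%, interval 1.66 to 40.5) had an IDR summit against 7.02%, and 9 (60.0%, interval 32.3 to 83.7) a pooled summit against 27.7%. On IV, 1 of 32 (3.12%) had an IDR summit against 7.65%, and 12 (37.5%) a pooled summit against 31.3%. On I, 1 of 23 (4.35%) had an IDR summit against 11.1%, and 7 (30.4%) a pooled summit against 40.2%. On III none of 8 had an IDR summit (interval up to 36.9%) against 11.5%, and 4 (50%) a pooled summit against 43.0%. In the pooled list the receptor share was below that of all genes on I and on no other chromosome. On II, the top entries of replicate 2 alone gave 0 of 15 against 6.29%. On I the pooled count of 7 became 5 (21.7% against 46.6%) in replicate 1 and 3 (13% against 40.2%) in replicate 2. In each replicate's own list the share with any listed summit was below on III too, at 50% against 50.7% in replicate 1 and 37.5% against 44.2% in replicate 2, and in replicate 2 also on IV, at 28.1% against 33.7%. Over all chromosomes the receptor share exceeded that of all genes by 11.2 percentage points in the pooled list, by 11.5 in replicate 1 and by 4 in replicate 2.

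**Figure D3:**
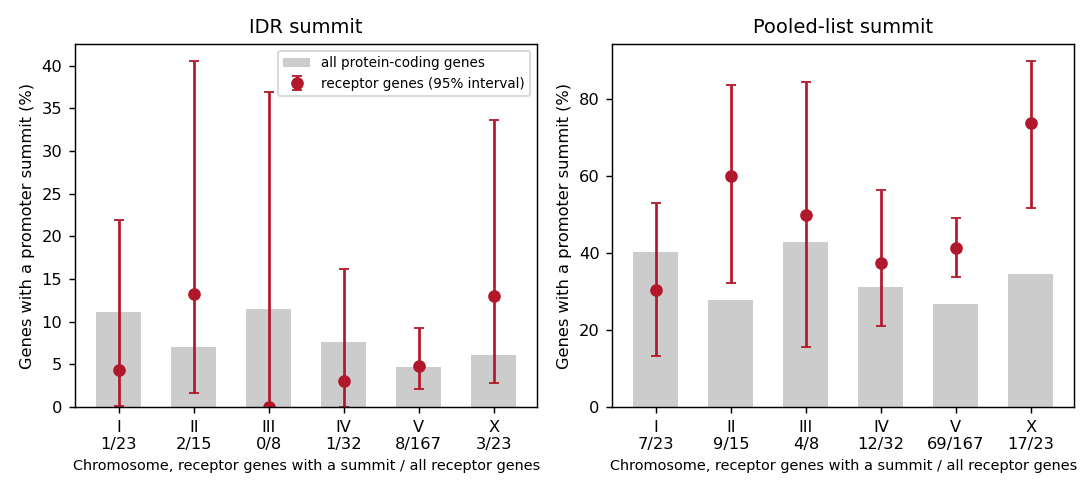
Percentage of genes with a promoter summit on each chromosome, in the IDR list (left) and the pooled list (right). Bars show all protein-coding genes, and points show receptor genes with 95% Clopper-Pearson intervals, with counts under each chromosome. The pooled points of II, V and X lie above their bars with intervals that exclude them, at 60.0%, 41.3% and 73.9%. The intervals cover counting error only and are not a test, because genes are not replicates. In the list of replicate 2 alone these shares were 40.0%, 40.7% and 65.2%, against 29.7%, 29.6% and 37.1% of all genes.

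Receptor genes often lie side by side. Among the 137 that have another receptor gene as the next protein-coding gene, 3 (2.19%) had an IDR summit and 62 (45.3%) a pooled summit. Among the 131 others, 12 (9.16%) had an IDR summit and 56 (42.7%) a pooled summit. For all protein-coding genes these shares were 7.65% and 32.8%. The IDR counts of 3 and 12 are small, and the difference between them was not tested. The pooled entries in receptor windows were mostly private to 1 receptor gene: 2 of the 136 distinct entries fell in the windows of a pair of receptor genes, nhr-94 with nhr-152 and nhr-81 with nhr-165. The 15 IDR summits were 15 distinct peaks. A receptor window was 12.3% coding at the median and 15.3% for all nuclear genes. Among genes whose window was at most 20% coding, the IDR share was 6.15% for receptor genes and 5.85% for all, and the pooled share was 44.1% and 31.7%.

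The IDR summits of receptor genes lay between 546 bp upstream and 26 bp downstream, with a median of 265 bp upstream, and 13 of 15 were intergenic and the other 2 in the 5' UTR. Pooled-only summits, taking the best for each gene, ranged from 977 to -196 bp upstream (negative values lie downstream), with a median of 171. Of those 103, 75 were intergenic, 13 in the 5' UTR, 8 in coding exons, 5 in introns and 2 in a 3' UTR. The promoter window itself lies mostly upstream of the 5' end. These positions were not counted for all genes, so they are not read as a trait of receptor genes.

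**Figure D4:**
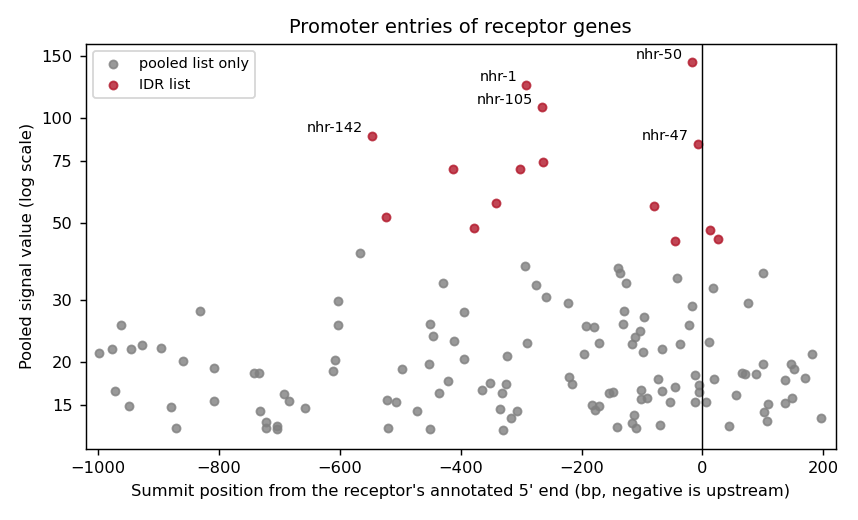
Position of each listed summit from the annotated 5' end of its receptor gene (horizontal axis, in bp, negative upstream) and its pooled signal (vertical axis, log scale), for 138 pairs of gene and entry. IDR peaks, in red, lie from 546 bp upstream to 26 bp downstream, and those with a signal above 80 are named.

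Of 8 receptors with a direct counterpart in insects or vertebrates, 1, nhr-48, had an IDR peak and 3 had any listed summit, where 7.65% and 32.8% of all genes did. A list this short cannot be told from the background. The gene nhr-25, the Ftz-F1 counterpart that acts in moulting and the epidermis, had a pooled entry of signal 15.7, ranked 10611 in replicate 1 and 4687 in replicate 2. The gene nhr-85, of the Rev-erb and E75 group, had one of 14.4, ranked 7764 in replicate 1 and absent from the list of replicate 2. No summit was listed for nhr-23 (the ROR counterpart required for moulting), nhr-6 (the NR4A counterpart that acts in the spermatheca), nhr-8 (a regulator of cholesterol balance), nhr-41 or nhr-91.

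Of 11 receptors linked to metabolism and diet, nhr-49 and nhr-68 had IDR peaks and 5 had any listed summit, where 7.65% and 32.8% of all genes did. This list too is so short that it cannot be told from the background. Weak pooled entries were listed for nhr-80 (a regulator of fatty acid desaturation, signal 19.0), nhr-114 (a receptor of the response to low vitamin B12, 16.2) and nhr-86 (a sensor of a bacterial metabolite, 14.4). The best entry of nhr-80 was nearer the 5' end of H10E21.1. Another entry of nhr-80, of signal 18.4, had its summit in the 5' UTR, 70 bp from the 5' end of nhr-80, and overlapped none in replicate 1. None was listed in the windows of nhr-13 and nhr-66, which encode partners of NHR-49, nor for nhr-10, nhr-31, nhr-45 or nhr-62.

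For a few receptors an IDR peak lay outside the window or at another transcript. That of nhr-10, which encodes the partner of NHR-68 in propionate breakdown, lay 1437 bp upstream of the 5' end (signal 57.4, ranks 1232 and 806). A peak of signal 56.7 lay inside nhr-31, a gene of the excretory canal, 505 bp upstream of the 5' end of a shorter transcript, and one of 48.2 lay 311 bp upstream of that of a shorter transcript of nhr-40. With windows drawn at any annotated transcript, 17 receptor genes had an IDR summit against 8.12% of all genes. A peak of signal 95.4 lay downstream of the 5' end of nhr-3, at an upstream distance of -1876 bp, and one of 80.4 lay 1557 bp upstream of nhr-157.

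Receptors with other names and genes of the same pathways were set beside the same background of 7.65% and 32.8%, from which lists this short cannot be told. Of 5 such receptors, daf-12, whose product responds to dafachronic acids in dauer formation, had a pooled entry of signal 13.4, and fax-1, sex-1, unc-55 and odr-7 had none. The daf-12 entry overlapped none in replicate 1. Of 13 genes for ligand synthesis, cofactors and targets, din-1 and acs-2 had IDR peaks and 4 had any listed summit. The peak of din-1, a corepressor of DAF-12, had a signal of 101, lay 725 bp upstream and ranked 424 and 344. That of acs-2, an acyl-CoA synthetase gene switched on by NHR-49, had a signal of 43.0, lay 733 bp upstream and ranked 1554 and 3048. Pooled entries were listed for the NHR-49 coactivator gene mdt-15 (22.7) and the corepressor gene gei-8 (13.7). The summit for mdt-15, 659 bp upstream, lay nearer the 5' end of R12B2.6, and its entry overlapped none in replicate 2. No summit was listed for the dafachronic acid synthesis genes daf-9, daf-36, hsd-1 and dhs-16, or for fat-5, fat-6, fat-7, fmo-2 and acdh-1.

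Exact matches to 5 short motifs, on either strand, were looked for in 101 bp centred on every summit. The AP-1 site TGACTCA or TGAGTCA was found at 1 of 15 receptor IDR peaks (6.67%, interval 0.169 to 31.9), that of nhr-50, and at 3.85% of all nuclear IDR peaks. It was found at 5 of 121 pooled-only receptor entries (4.13%, interval 1.36 to 9.38), those of nhr-117, nhr-206, nhr-98, nhr-277 and nhr-272, and at 1.74% of all such entries. CACGTG was found at 1 IDR peak, of nhr-32, and at 5 pooled-only entries, with 3.85% and 2.18% over all entries. GAGAGAG was at 1 IDR peak (6.67%), of nhr-1, where 16.4% of all IDR peaks had it, and at 9 pooled-only entries (7.44%) against 4.16%. The cAMP-response site TGACGTCA and AGGTCA, the core element bound by many nuclear receptors, were at none of the 15 IDR peaks and at 1 pooled-only entry each (0.826%). Over all entries TGACGTCA was at 0.963% of IDR peaks and 0.607% of pooled-only entries, and AGGTCA at 2.09% and 2.90%, so a count of 0 of 15 is near the background. In the whole promoter window the AP-1 site was present for 36 receptor genes (13.4%) and for 11.7% of all nuclear genes.

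Of the strings of 8 bases, 7 recurred in at least 3 of the 15 windows, and AAAAGAGA and AGAGAAAA in 4. The 7 are not all separate: AGACGCAG, GACGCAGA and GAGACGCA recurred in the same 3 genes, as shifted reads of the same stretch. The last of these, whose reverse complement is TGCGTCTC, was chosen after the sequences were seen. It stood within 50 bp of the summits of nhr-1, nhr-256 and nhr-58, printed above, but toward the edge of the searched stretch in nhr-1 and nhr-256. It was within 50 bp of 12% of all nuclear IDR summits and 1.90% of pooled-only summits, and in 8.06% of all promoter windows. Promoter windows run from 1000 bp upstream to 200 bp downstream. They are far longer than the 101 bp searched at summits, so their shares are not on the same footing. CACGTG was in 18.4% of all promoter windows and 19.4% of receptor windows, and GAGAGAG in 17.0% and 17.9%. AGGTCA was in 26.7% of all and 26.9% of receptor windows, and TGACGTCA in 5.89% and 6.34%.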

How the data were processed

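FOS-1 ChIP-seq lists of 2 biological replicates of 1 group were used in build ce11. Per the deposited text files, 1 control file entered every list: the replicate lists each used it with 1 set of alignments, the pooled list with both sets, and the IDR list was derived from those 3 lists. Aligner, peak caller and IDR threshold were not given in the sources used here. Signal values are the authors' own, as deposited. The deposited −log10 q value takes 1 value over the IDR list, so entries were ranked by signal. Gene models were those of Ensembl release 115 on WBcel235, and sequence came from RefSeq; 0 entries ended past a chromosome end. Entries were matched between lists by overlap of at least 1 bp. Shares were compared with all protein-coding genes without a test, and assignment was tested on simulated data. Named genes are all receptors with IDR summits, the next 10 by pooled signal, fixed role lists and the pathway genes with summits; 1 of 14 pathway symbols was not found in the annotation. Genes named beyond these were chosen after their values were seen. Members and lists were chosen with earlier results of these data known. The ce10 lists were not used. Tools were pandas 2.3.3 and numpy 2.4.6 under Python 3.11.15, scipy 1.17.1 for intervals and matplotlib 3.10.9 for plots.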

Additional observations from a re-analysis of the deposited data

How the results depend on the processing

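The weighting by chromosome, the exclusion of chromosome V, the limit on coding sequence and the 5000 highest entries were settings chosen after seeing the data. The number of receptor genes with an IDR summit was 8 (2.99%) with the 947 IDR peaks of higher signal, against 4.14% of all genes. It was 7 of 101 (6.93%) without chromosome V, against 8.63%. Among the top entries of single replicates it was 18 (6.72% against 7.35%) in replicate 1 and 12 (4.48% against 7.37%) in replicate 2. It was highest, at 22 (8.21% against 9.83%), with windows reaching 2000 bp upstream. The IDR share of receptor genes differed from that of all genes by -2.05 percentage points as reported and by -2.89 to -0.629 in single replicates. The difference turned to 0.517 with each summit given to the nearest 5' end and to 0.305 in windows at most 20% coding. Pooled summits were found for 77 receptor genes with the 10181 highest entries (28.7% against 22.4% of all genes). With entries in both replicates they were found for 75 (28.0% against 21.4%), and with the 5000 highest for 42 (15.7% against 14.9%). Without chromosome V the count was 49 of 101 (48.5% against 34.9%). In the lists of single replicates it was 140 (52.2% against 40.7%) in replicate 1 and 104 (38.8% against 34.8%) in replicate 2. The pooled share stayed above that of all genes in the alternative settings of this section, by 0.74 points with the 5000 highest entries and 4 to 11.5 in single replicates. At every shorter cut of the pooled list counted above, the receptor share was below that of all genes. The sign of this difference therefore depends on the number of entries counted, and the cut at 5000 lies just past the crossing. Chromosomes where the receptor share was above that of all genes numbered 3 of 6 for IDR summits (1 to 3 in single replicates) and 5 for pooled summits (3 to 4). The cause of these changes was not tested. No paired analysis was possible because both samples share a group. Without read depths, the sites too weak to be listed cannot be counted.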
